A study of Homo sapiens with 4 samples.

Results

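The DDX and DHX genes encode the DEAD-box and DEAH-box RNA helicases, and 49 of them were examined here in SK-MEL-28 cells, an established human melanoma line, with and without induction of MYC. They were taken by symbol: DDX or DHX followed by a number and at most a single letter, whose FPKM averaged 1 or more across the 4 libraries, and without DDX20, a protein of the SMN complex. FPKM is the number of sequenced fragments per length of the transcript and per size of the library, so levels of different genes can be set side by side per length. The rule found 56 symbols in the table, of which 49 reached the minimum, among 11147 genes of all kinds that did. Those nearest to the limit were DDX25 (mean 1.90 FPKM), DHX58 (2.57 FPKM) and DDX60L (2.74 FPKM) inside it, and DDX26B (0.895 FPKM), DDX58 (0.794 FPKM) and DDX60 (0.506 FPKM) outside it. The other symbols below the limit were DDX4, DDX43 and DDX53, genes known for germ cell expression, and DDX3Y. The 49 counted as helicases include DDX11, a DNA helicase, and DDX12P, a pseudogene copy of DDX11.

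RNA helicases use ATP to open short RNA duplexes or to strip proteins from RNA. Different members act at different steps of an RNA's life: processing of pre-ribosomal RNA in the nucleolus, the rearrangements of the spliceosome, export of mRNA, initiation of translation, decay of mRNA and the sensing of viral RNA. MYC is a transcription factor that, with its partner MAX, binds the E-box motif and is known for raising genes of ribosome synthesis.

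The 4 libraries came from SK-MEL-28 cells transduced with lentivirus that carried either an empty pTRIPZ vector (the empty-vector line) or a MYC gene under a Tet-inducible promoter (the MYC-inducible or MYC line). Both lines had been selected with geneticin, and each was sequenced untreated and after doxycycline (Dox) had been given at 0.5 μg/ml for 54 h. All 4 libraries therefore carry a transgene backbone and the cells' own MYC gene, and the empty-vector line with Dox is the control for the drug. Each condition has 1 library, so differences between conditions cannot be set against replicates, no p-value is given, and a difference between cultures cannot be told apart from an effect of Dox or MYC.

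Sequencing depth was approximately 38900000, 34800000, 41800000 and 39100000 fragments for the empty-vector line without and with Dox and the MYC line without and with Dox, as estimated from genes with very low values. MYC itself had 58.3 FPKM and 54.8 FPKM in the empty-vector line without and with Dox, and 76.5 FPKM and 87.1 FPKM in the MYC line. That is a log2 change with Dox of 0.19 in the MYC line and a log2 difference of 0.39 between the lines before Dox. With Dox in both, the MYC line lay 0.67 above the empty-vector line. The induced library, the MYC line with Dox, is thus named for its label and not for a large rise of these MYC values with Dox. The 7 melanocyte markers examined (PMEL, MLANA, TYR, TYRP1, DCT, MITF and SOX10) lay between 14.2 and 6227 FPKM in all libraries. They summed to 7771 to 7911 FPKM in the 3 libraries without MYC induction and to 4414 FPKM in the induced library. PMEL made up most of these sums, with 6176 to 6227 FPKM in those 3 libraries and 3394 FPKM in the induced library. DCT, at 65.1 FPKM in the induced library, lay inside the range of the others (61.9 to 87.5 FPKM). Each of the other markers lay below its range there. Of 7 markers of other cell types, 6 stayed below 1 FPKM in every library. The exception was the epithelial gene EPCAM, with 0.658 to 0.769 FPKM in the 3 other libraries and 2.71 FPKM in the induced library, and KRT5 was listed at 0 throughout. These 7 summed to 0.765 to 0.959 FPKM in the 3 other libraries and to 2.85 FPKM in the induced library, and the part of these shifts in the results below was not tested. In RNA from a whole culture, fewer cells that express a gene and less of its RNA per cell cannot be told apart.

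Changes are given as differences of log2(FPKM + 0.1), a scale that understates the change of low genes. A gene was called higher or lower when it passed 1.5-fold, a log2 change of 0.58. With Dox in the MYC line, 6 of the 49 helicases were higher (DDX21, DDX10, DDX51, DDX49, DHX34 and DDX31), where 5.9% of all 11147 genes were. DDX60L was the 1 helicase called lower, where 8.85% of all genes were. With the libraries rescaled to the same sum, 4 helicases were higher, beside 4.71% of all genes, and 2 lower, beside 10.3%. At a smaller log2 change of 0.32, 21 helicases were higher, beside 16.9% of all genes, and 2 were lower, beside 21.4%. The median log2 change was 0.28 over the helicases, with quartiles of 0.15 and 0.44, and -0.03 over all genes. In the empty-vector line 0 helicases passed 1.5-fold in either direction, where 0.709% of all genes were higher and 0.44% lower, and the median was 0.03 for the helicases and 0.01 for all genes. At 0.32, 1 helicase was higher there, DHX58, beside 2.36% of all genes, and 0 were lower, beside 1.72%.

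Most of these changes were small and of one sign. Of the 49, 42 had a change above 0 in the MYC line, beside 46.8% of all genes. The induced library was above each of the 3 other libraries for 40 helicases, beside 40.2% of all genes, and below each of them for 4, beside 42.9%. For 36 helicases it was above by more than the whole range of the other 3, beside 26.9% of all genes, and for 3 it was below by more, beside 28.6%. The range of those 3 libraries, which differ by line, by Dox and by culture, is the nearest thing to a replicate spread in these data. The 5 helicases whose induced level lay inside that range, beside 16.9% of all genes, were DDX17, DDX42, DDX50, DDX25 and DDX12P. Added up, the helicases had 1184, 1199 and 1202 FPKM in the 3 libraries without MYC induction and 1514 FPKM in the induced library.

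**Figure D1:**
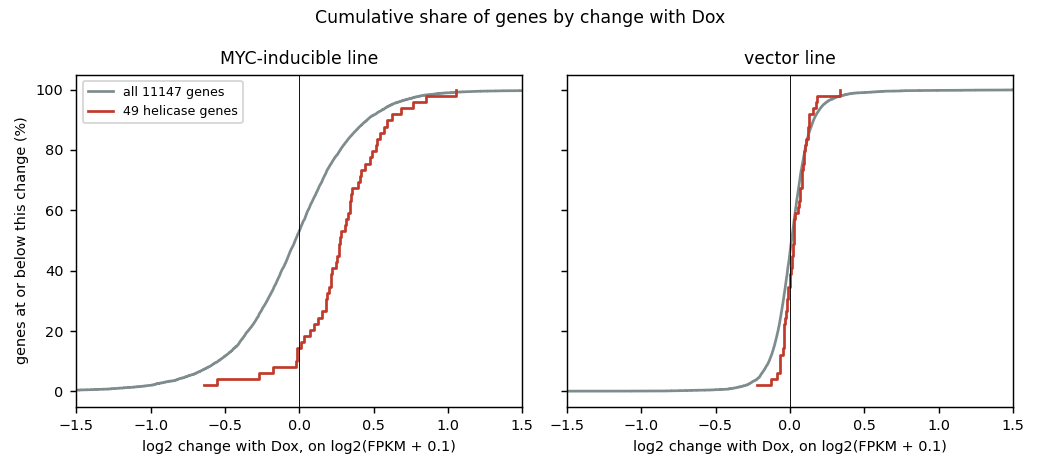
Cumulative share of genes (percent, vertical axis) with a log2 change with Dox at or below the value on the horizontal axis, for the 49 helicases (red) and all 11147 genes (grey), in the MYC line (left) and the empty-vector line (right). The helicase curve lies to the right of the curve of all genes on the left, with medians of 0.28 and -0.03, and close to it on the right, with medians of 0.03 and 0.01.

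Set against the empty-vector line with Dox, which shares the drug, the induced library gave a median log2 difference of 0.29 for the helicases and -0.01 for all genes, and 4 helicases were higher (beside 6.5%) and 2 lower (beside 8.62%). It shares the induced library with the comparison above, so its values are not a second measurement. Between the untreated libraries of both lines the helicase median was 0.03, beside 0.02 for all genes, and 0 helicases passed 1.5-fold, where 0.592% of all genes were higher and 0.287% lower. The difference of the Dox changes, MYC-inducible minus empty-vector line, had a median of 0.27 over the helicases, from -0.89 for DHX58 to 1.02 for DDX21. It was -0.04 over all genes.

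**Figure D2:**
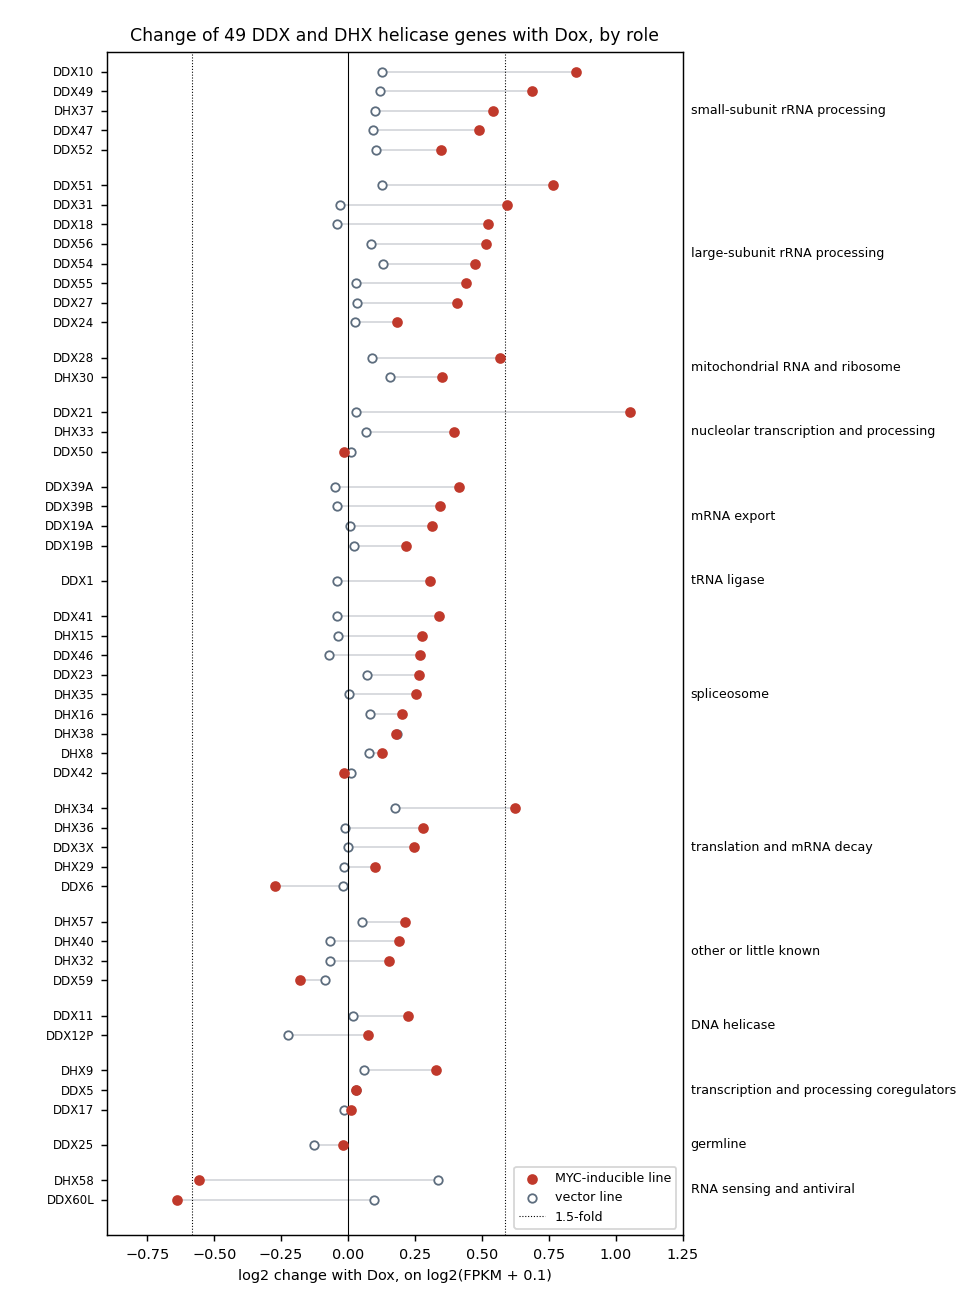
Log2 change with Dox (horizontal axis, on log2(FPKM + 0.1)) of each of the 49 helicases in the MYC line (red) and in the empty-vector line (open circles), grouped by role and ordered by the median of the role, with 1.5-fold as dotted lines. Among the helicases of ribosomal RNA processing DDX10 is at 0.85, DDX21 reaches 1.05, and DHX58 and DDX60L at the bottom are the points furthest to the left.

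The helicases of ribosome synthesis in the nucleolus held the largest rises. Of 16 genes with a nucleolar role, 15 were above all 3 other libraries in the induced library, beside 40.2% of all genes. Upward, 5 of the 16 passed 1.5-fold, beside 5.9% of all genes. The 16 genes had a median Dox change of 0.50 on the log2 scale for the MYC line, beside 0.08 for the empty-vector line. For the other 33 helicases the medians were 0.22 and 0.00. Of these 33, 25 were above all 3 other libraries and 4 below, beside 40.2% and 42.9% of all genes. In each direction 1 of them passed 1.5-fold, beside 5.9% of all genes upward and 8.85% downward. By summed FPKM, the 16 nucleolar genes made up 27.7%, 28.7% and 27.9% of the helicase total in the 3 libraries without induction and 31.8% in the induced library.

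DDX21, which acts in transcription by RNA polymerase I and in rRNA processing, changed most. Its level was 15.8 FPKM and 16.1 FPKM in the untreated and Dox-treated empty-vector line, and 16.9 FPKM and 35.1 FPKM in the untreated and Dox-treated MYC line. The induced library stood apart, while the 3 others lay close together. The rise was 2.07-fold, a log2 change of 1.05 (approximate counting error 0.031), and the change in the empty-vector line was 0.03. Counting errors describe how precisely fragments were sampled and say nothing of how cultures vary. DDX21 lies on chromosome 10 of GRCh37 from 70715891 to 70744824. It was the 1 helicase to pass 2-fold, as 1.05% of all genes did upward; 0 passed it downward, beside 2.05%.

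Its paralog DDX50 lies 9287 bases upstream on the same strand, from 70661042 to 70706603, and did not share the rise. DDX50 had 10.9 FPKM in both libraries of the empty-vector line, and 11.8 and 11.7 FPKM in the untreated and Dox-treated MYC line. Its log2 change was -0.01, with a counting error of 0.059, inside the spread of the other libraries, and it came to 0.03 when the libraries were scaled by their median ratio. The level of DDX21 was 1.43 to 1.47 times that of DDX50 in the 3 libraries without induction and 3.01 times in the induced library. DHX33, a DEAH-box protein linked to RNA polymerase I, had 10.4, 10.9 and 10.9 FPKM in those 3 libraries and 14.4 FPKM in the induced library, a log2 change of 0.40.

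Helicases of the small ribosomal subunit act in the large particle that cuts and folds the pre-rRNA around the small nucleolar RNAs. All 5 measured were above the other libraries in the induced library, beside 40.2% of all genes. Their median log2 change was 0.54, beside 0.11 in the empty-vector line. DDX10 had 6.87 and 7.51 FPKM in the empty-vector line without and with Dox, and 6.81 and 12.4 FPKM in the MYC line. That is a 1.80-fold rise, or 0.85 on the log2 scale (counting error 0.060), and it was the second largest of the helicases. It lies on chromosome 11 from 108535785 to 108811726.

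DDX49, the most abundant of this group, had 52.7 and 57.2 FPKM in the empty-vector line without and with Dox, and 51.8 and 83.4 FPKM in the MYC line. Its log2 change was 0.69, and 0.12 in the empty-vector line. Against the empty-vector line with Dox the difference was 0.54, below the 1.5-fold mark, since Dox alone went with a higher level there. DHX37, which releases the U3 small nucleolar RNA, went from 12.3 to 18.0 FPKM (0.54), and DDX47 from 28.5 to 40.1 FPKM (0.49). DDX52 had the smallest change of the group, 0.35, from 4.24 to 5.43 FPKM. None of these 3 was called at 1.5-fold, although DHX37 reached 0.59 when scaled by median ratios. All 5 genes also lay 0.09 to 0.13 higher with Dox in the empty-vector line.

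The large-subunit group acts on the intermediates that mature into the large ribosomal subunit. Its 8 genes were all above the other libraries in the induced library, beside 40.2% of all genes. Their log2 changes ran from 0.18 to 0.77 with a median of 0.49, beside 0.03 in the empty-vector line. DDX51, which is needed for the maturation of the end of the 28S rRNA, had 5.84 and 6.37 FPKM in the empty-vector line without and with Dox, and 6.12 and 10.5 FPKM in the MYC line. The rise was 1.70-fold, a log2 change of 0.77 (counting error 0.053). It lies on chromosome 12 from 132621139 to 132628864.

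DDX31 had 5.03 and 4.93 FPKM in the empty-vector line and 5.16 and 7.83 FPKM in the MYC line, a log2 change of 0.59 (counting error 0.063). This lies barely past 1.5-fold: it was 0.52 with a pseudocount of 1 and 0.55 when the libraries were rescaled to the same sum. On chromosome 9 its first exon overlaps GTF3C4 on the opposite strand, and the counting is not stated to use strand. GTF3C4 had 2.68, 2.93, 3.21 and 4.73 FPKM in the same order of libraries, and the part of shared reads was not tested. DDX18, also known as MrDb for Myc-regulated DEAD box protein, had 21.5, 20.8 and 21.6 FPKM without induction and 31.0 FPKM with it, a log2 change of 0.52.

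The other genes of the group followed in steps. DDX56 went from 37.1 to 53.1 FPKM in the MYC line (0.51), DDX54 from 31.3 to 43.5 FPKM (0.47), DDX55 from 12.4 to 16.9 FPKM (0.44) and DDX27 from 46.5 to 61.7 FPKM (0.41). DDX24 had the smallest change, from 32.4 to 36.8 FPKM (0.18). In the empty-vector line these 5 genes changed by 0.03 to 0.13, the largest being DDX54. Exons of DDX24, DDX27, DDX54 and DDX55 overlap an antisense gene in the annotation.

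Promoters of the helicases were searched for CACGTG, the canonical E-box, which reads the same on both strands, in the RefSeq windows from 250 bases before to 50 bases after each listed start site (GRCh38.p14). Windows were found for 43 of the 49 helicases; none was matched for DDX12P, DDX18, DDX49, DDX52, DHX33 and DHX58. The motif was present in at least 1 window of 10 of the 43 genes, 23.3%, beside 13.2% of the 8381 genes above the limit with a window and 8.77% of all 27305 genes of the table. The 10 genes were DDX21, DHX34, DDX31, DHX37, DDX54, DHX35, DHX40, DHX32, DDX5 and DDX25. Their median log2 change in the MYC line was 0.36, and that of the 33 without the motif was 0.27. A match describes letters in a window, not binding. The sites below are shown because they stand next to the largest rise (DDX21), further large-subunit helicases (DDX31, DDX54) and helicases with almost no change (DDX5, DDX25). The motif is in capitals with 12 bases on either side, 5′ to 3′ on the strand of the gene.
DDX21, chr10:68956604-68956633, plus strand: ggccgggtgtccCACGTGgtccccggcgac
DDX31, chr9:132669988-132670017, minus strand: cctcgcgcgtccCACGTGgggtcccgggcc
DDX54, chr12:113185522-113185551, minus strand: ctcagcggaggtCACGTGgtcaccgcacct
DDX5, chr17:64506651-64506680, minus strand: gggtggtacagcCACGTGacaacgccaggc
DDX25, chr11:125904473-125904502, plus strand: cggtggtggaagCACGTGctgggggcggga

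The E-box thus stood in front of DDX21, with a log2 change of 1.05, and in front of DDX5, with 0.03. It began 31 bases before a start site of DDX21, 22 before one of DDX31, 61 before that of DDX54, 30 before one of DDX5 and 23 before one of DDX25. DDX21 has 2 windows in the table and DDX31 and DDX5 have 3 each, of which 1 holds the motif. DDX10 and DDX51, with the next largest rises, had windows without CACGTG, and so did DDX50.

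The mitochondrial helicases moved in the same direction as the nucleolar ones. DDX28, which assembles the large subunit of the mitochondrial ribosome, had 5.96 and 6.34 FPKM in the empty-vector line and 5.77 and 8.60 FPKM in the MYC line, a log2 change of 0.57 (counting error 0.080). It stayed under 1.5-fold here and reached 0.61 when scaled by median ratios. DHX30, a protein of the mitochondrial RNA granules, had 25.8 and 28.8 FPKM in the empty-vector line and 25.7 and 32.8 FPKM in the MYC line (0.35). For DHX30 the empty-vector line with Dox was itself higher, at 0.16, and the induced library lay 0.19 above it.

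The spliceosomal helicases drive the rearrangements from assembly to release of the spliceosome, and in a study of splicing they are the members nearest to its question. Of the 9 measured, 0 passed 1.5-fold upward, beside 5.9% of all genes, and 8 were above all 3 other libraries in the induced library, beside 40.2%. The median of their log2 changes was 0.26 in the MYC line and 0.01 in the empty-vector line. DDX41 had the largest change, from 16.6 to 21.1 FPKM (0.34), with 16.9 and 16.5 FPKM in the empty-vector line. DHX15, which releases spliced lariats and is the most abundant of the group, had 47.8 and 46.6 FPKM in the empty-vector line and 47.0 and 57.0 FPKM in the MYC line (0.28). DDX46, which acts when the branch site is recognised, and DDX23, of the tri-snRNP, both had changes of 0.27.

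DHX8, DHX38 and DHX16, which act around the catalytic steps, had changes of 0.13, 0.18 and 0.20, and DHX35 had 0.26. For DHX38 the change in the empty-vector line was 0.18 too, and the difference between the lines was 0.00. DDX42, a partner of the SF3B complex, had 19.5, 19.7, 20.7 and 20.5 FPKM over the 4 libraries, a change of -0.01 that lay inside the spread of the other libraries and came to 0.03 when scaled by median ratios. DHX16 and DDX39B each stand in 8 rows of the table, of which 1 row has values above 0, and the rows were summed.

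The 4 mRNA export helicases were all above the other libraries in the induced library, beside 40.2% of all genes. They had a median log2 change of 0.33 and none passed 1.5-fold upward, beside 5.9% of all genes. They include the most abundant helicase, DDX39B, which joins spliced mRNA to the export machinery and had 119 and 116 FPKM in the empty-vector line and 121 and 153 FPKM in the MYC line (0.34). Its paralog DDX39A had 101 and 97.4 FPKM in the empty-vector line and 102 and 136 FPKM in the MYC line (0.42). DDX19A and DDX19B, which remodel mRNA at the nuclear pore, had changes of 0.31 and 0.22, from 18.5 to 22.97 FPKM and from 10.2 to 11.9 FPKM. Near-identical pairs can share reads. DDX39A stood at 0.840 to 0.845 times DDX39B without induction and at 0.889 times with it, and DDX19A at 1.72 to 1.80 times DDX19B and at 1.93 times, so neither ratio moved as that of DDX21 to DDX50 did.

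DDX5 and DDX17, paralogs that act as coregulators of transcription and in microRNA processing and splicing, had nearly the same level in every library. DDX5 had 104, 106, 108 and 111 FPKM, a log2 change of 0.03 in each line, with a counting error of 0.016 in the MYC line. DDX17 had 38.4, 37.9, 37.4 and 37.6 FPKM, a change of 0.01. Both signs turned when the libraries were rescaled to the same sum, to -0.02 and -0.04. DHX9, or RNA helicase A, had 53.4, 55.6 and 55.0 FPKM without induction and 69.1 FPKM with it (0.33). As abundant genes that stayed level, DDX5 and DDX17 took a smaller part of the whole: these 3 genes made up 16.6% to 16.7% of the helicase FPKM in the 3 other libraries and 14.4% in the induced library.

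The helicases of translation and mRNA decay went both ways. DHX34, a factor of nonsense-mediated decay, had 6.65 and 7.53 FPKM in the empty-vector line without and with Dox, and 6.79 and 10.5 FPKM in the MYC line. On the log2 scale this is 0.62 (counting error 0.053), beside 0.18 for the empty-vector line. The call was lost with a pseudocount of 1 (0.56), after rescaling to the same sum (0.58) and against the empty-vector line with Dox (0.47). DDX6, which represses translation in processing bodies, had 7.04 and 6.94 FPKM in the empty-vector line and 7.36 and 6.07 FPKM in the MYC line, a change of -0.27 with a counting error of 0.050, and the induced library was below the 3 others. DHX36, which opens G-quadruplexes, and DDX3X, which helps ribosomes to scan structured leaders, had changes of 0.28 and 0.25, and DHX29, which works on the same step, had 0.10. DDX1, of the tRNA ligase complex, had 90.2, 87.7 and 90.4 FPKM without induction and 112 FPKM with it (0.31).

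Both helicases whose assigned role was to sense or restrict viral RNA had lower levels in the induced library. Each gene was given a single role, so any member with a further role in sensing was counted elsewhere. DDX60L, an interferon-induced helicase, had 2.98 and 3.20 FPKM in the empty-vector line and 2.93 and 1.84 FPKM in the MYC line. It fell by 0.64 on the log2 scale, with a counting error of 0.082, and by 0.47 with a pseudocount of 1, which is under 1.5-fold. DHX58, or LGP2, the regulator of RIG-I signalling, had 2.41 and 3.06 FPKM in the empty-vector line and 2.87 and 1.92 FPKM in the MYC line. Its change was -0.56, with a counting error of 0.13, just short of 1.5-fold. It was -0.41 with a pseudocount of 1, -0.60 after rescaling to the same sum and -0.64 against the empty-vector line with Dox, and the last pair is past 1.5-fold.

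Both were below all 3 other libraries, beside 42.9% of all genes. So were DDX58 and DDX60, members of this role group left out by the limit of 1 FPKM. DDX58, or RIG-I, had 0.798, 0.895 and 0.851 FPKM without induction and 0.630 FPKM with it. DDX60, the paralog of DDX60L, had 0.528, 0.548 and 0.602 FPKM without induction and 0.346 FPKM with it. These 4 are low genes in these cells. DHX58 and DDX60 rest on few fragments, approximately 195 and 81 in the induced library, and DDX60L on more, approximately 487. For DDX58 the fragments were not estimated. IFIH1, which encodes the related sensor MDA5, had 1.67, 1.49, 1.45 and 1.41 FPKM in the order of the libraries, with a change of -0.03 in the MYC line.

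The remaining helicases differed little between libraries. DDX11, a DNA helicase of sister chromatid cohesion, went from 16.7 to 19.5 FPKM (0.22), and DDX12P, a pseudogene copy with which it can share reads, had 3.44, 2.93, 3.25 and 3.43 FPKM. DDX25, known from the testis, had 1.86, 1.70, 2.04 and 2.01 FPKM, a change of -0.02 that was 0.23 against the empty-vector line with Dox. Among the less studied members, DHX57, DHX40 and DHX32 had changes of 0.21, 0.19 and 0.15, and DDX59 went from 5.21 to 4.58 FPKM (-0.18), below all 3 other libraries. Its counting error was 0.097.

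By level, the 17 most abundant helicases, with means of 23.7 to 127 FPKM, had a median log2 change of 0.34 in the MYC line. The 16 in the middle had 0.25 and the 16 lowest, with means up to 8.39 FPKM, had 0.17. The lowest group held both the antiviral genes and DDX10, DDX51, DHX34 and DDX31, so it spanned the widest changes, from -0.64 to 0.85.

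RNA helicases of other names and the partners of helicases were set beside them. Of 18 other RNA helicases, 1 passed 1.5-fold upward in the MYC line, a share close to the 5.9% of all genes that were higher. Downward 0 passed it, beside 8.85% of all genes. The median of the list was 0.06, beside 0.02 in the empty-vector line. The gene past 1.5-fold was SUPV3L1, the helicase of mitochondrial RNA turnover. It had 9.73, 10.4 and 10.1 FPKM without induction and 17.8 FPKM with it, a log2 change of 0.80. EIF4A1, the translation initiation helicase, is far more abundant than any DDX or DHX gene and went from 884 to 1079 FPKM (0.29), while its paralog EIF4A2 went from 161 to 138 FPKM (-0.22). The spliceosomal SNRNP200 and the exon junction helicase EIF4A3 had changes of 0.15 and 0.10. HELZ2 had -0.58, just short of 1.5-fold, from 1.08 to 0.689 FPKM, and passed it after rescaling to the same sum (-0.63) and against the empty-vector line with Dox (-0.76).

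Of 40 partner genes, 3 passed 1.5-fold upward, also a share close to the 5.9% of all genes, and 0 downward, beside 8.85%. The median was 0.14 in the MYC line and 0.03 in the empty-vector line. THOC5, of the THO complex that works with DDX39B, went from 42.6 to 66.5 FPKM (0.64). GPATCH4 and PINX1, nucleolar proteins with the G-patch that activates DEAH-box helicases, went from 35.3 to 54.7 FPKM (0.63) and from 14.2 to 21.5 FPKM (0.59). None of these 3 calls held under every alternative. Against the empty-vector line with Dox, THOC5 (0.58) and GPATCH4 (0.43) lay under the mark, and PINX1 (0.70) stayed past it. After rescaling to the same sum GPATCH4 (0.58) and PINX1 (0.54) lay under it, and with a pseudocount of 1 PINX1 did (0.56). UTP14A, the activator of DHX37, had a change of 0.58, just under the mark. It passed the mark with a pseudocount of 0.01 (0.59) and with median ratios (0.63). THOC2, also at 0.58, passed it in the same 2 settings (0.59 and 0.62) and against the empty-vector line with Dox (0.79). FAM98B, at 0.47, passed it in that last comparison (0.66). The medians of the 3 lists were in the order DDX and DHX helicases, partners, other helicases, and this order was not tested.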

How the data were processed

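RNA-Seq libraries of 4 conditions were analysed, 1 per condition. Per the labels and their processing notes, reads were handled with TopHat2 2.0.14 and Cufflinks on hg19 (GRCh37); the annotation used is not given in the sources used here. The values deposited by the authors are FPKM for each gene symbol; they are not counts, so no count model was fitted. Of 27032 rows, 1 that names no gene was not used, and rows of the same symbol were summed (25268 symbols). Changes were differences of log2(FPKM + 0.1) over genes whose FPKM averaged 1 or more, called at 1.5-fold. The calculations were tested on simulated data with planted 2-fold changes and counting error only. That check says nothing of smaller changes or of how cultures vary. Depth was estimated from genes with values under 0.2 FPKM that were whole multiples of a step (tolerance 1.2%), with the transcript lengths of 101 genes, whose estimates had quartiles of 32500000 and 40700000 fragments. Depth and counting errors are therefore approximate and cover counting only. Of the 49 helicases, 24 share exonic bases with another gene in GENCODE release 44 on GRCh37, which gave the positions. Overlaps on the same strand include DHX33 with C1QBP, DDX47 with APOLD1, DDX46 with C5orf24 and DDX39B with SNORD84. The part of shared reads in these values was not tested.

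The helicases, roles, lists and the rule for named genes were chosen with earlier results of these data known. The rule named helicases past 1.5-fold, the 10 with the largest change and the 10 with the highest level. It also named paralog pairs, the extremes of each role and those nearest the limit. In the other lists it named the 3 largest rises and falls past 1.5-fold. DDX18, DDX47, DDX55 and the remaining spliceosomal and other members were added after their values were seen. So were the genes EIF4A1, EIF4A2, EIF4A3, SNRNP200, IFIH1, HELZ2, UTP14A, THOC2, FAM98B and GTF3C4. Alternatives covered the pseudocount, filter, scaling, threshold, summary, reference library and symbols with several rows. Applying them to the calls of the other RNA helicases and partners, and to the share of all genes called, was chosen after seeing the data. No level is reported for DDX3Y, and no protein sequence was used. Tables were handled with pandas 2.3.3 and numpy 2.4.6 under Python 3.11.15, and plots were drawn with matplotlib 3.10.9.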

Additional observations from a re-analysis of the deposited data

Results flagged for a closer look

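DHX58 moved in opposite directions in the 2 lines, by more than 1.96 approximate counting errors in each. With Dox it went by -0.56 on the log2 scale where MYC was inducible and by 0.33 where it was not, with counting errors of 0.13 in both, a difference of -0.89. It was the 1 helicase picked out in this way, and the difference was not tested, because each condition has 1 library.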

How the results depend on the processing

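No paired analysis was possible because a single library stands for each condition. A value of the change was taken as moved when it shifted by more than 0.11, the robust SD of the log2 difference between the untreated libraries over all genes, and a count when it shifted over 1.5 times. Of 82 recalculated values for the helicases as a list, 70 did not move and 12 did. The median stayed between 0.23 and 0.32 in the MYC line and between 0.01 and 0.03 for the empty-vector line. With MYC induction 21 helicases were higher and 2 lower at a log2 change of 0.32, beside 16.9% and 21.4% of all genes. At 2-fold 1 was higher and 0 lower, beside 1.05% and 2.05%. With Dox alone 1 was higher at 0.32, beside 2.36%. The 1 helicase lower at 1.5-fold became 0 with a pseudocount of 1 or a mean of at least 5 FPKM, and 2 without the filter, after rescaling to the same sum or against the empty-vector line with Dox. The share of all genes called lower ran from 6.17% with a pseudocount of 1 to 10.3% after rescaling, and was not calculated without the filter. Those below all 3 other libraries were 4 at the main filter, beside 42.9% of all genes. They became 7 without the filter and 2 at a minimum mean of 5 FPKM, because the genes examined change with it. The share of all genes below all 3 was not calculated for those 2 settings. After rescaling to the same sum, 4 helicases were higher, beside 4.71% of all genes, and 2 lower, beside 10.3%. With median ratios 8 were higher, beside 7.26% of all genes, and 1 lower, beside 7.58%. Of 326 values for single helicases and role groups, 14 moved and 2 role medians reversed: -0.018 for the coregulators after rescaling to the same sum, and 0.23 for the germline gene DDX25 against the empty-vector line with Dox. A single helicase was counted as reversed only if its main change passed 1.5-fold. The small changes of DDX5, DDX17, DDX25, DDX42 and DDX50 turned sign under some alternatives and were therefore not counted as reversed. For these shifts the cause was not tested. Depth limits the low genes most, as DHX58, with approximately 195 fragments in the induced library and 242 to 311 in the 3 others.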
